A study of Mus musculus with 30 samples.

Results

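The interferon regulatory factors (IRFs) are a family of transcription factors that bind DNA through a shared N-terminal domain and control interferon genes, interferon-stimulated genes and the development of lymphoid and myeloid cells. The genes described here were Irf1, Irf2, Irf3, Irf4, Irf5, Irf7, Irf8 and Irf9, chosen by symbol. They made up 8 of 19470 entries in the lung table and 8 of 18845 entries in the spleen table, and each had 1 entry per table.

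IRF proteins recognise repeats of a GAAA core, which forms the interferon-stimulated response element. After lipopolysaccharide (LPS) binds Toll-like receptor 4, IRF3 and then IRF7 switch on type I interferon genes, and secreted interferon acts back on cells through ISGF3, a complex that IRF9 brings to DNA. IRF1 is induced by interferon gamma, IRF2 can oppose it at shared sites, IRF5 drives inflammatory cytokine genes, and IRF4 and IRF8 act in lymphocytes, dendritic cells and myeloid cells.

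RNA of whole lungs and whole spleens from C57BL/6 mice aged 8 weeks was sequenced for lincRNA-Cox2 knockout, lincRNA-Cox2 mutant and wild type animals. LincRNA-Cox2 is a long non-coding RNA gene near Ptgs2 that is induced in innate immune cells. Mice received 20 mg/kg LPS by intraperitoneal injection and organs were taken after 6 h, or they received PBS, for which the labels give no time. Each genotype and tissue had 3 LPS and 2 PBS libraries, 30 in all in 12 groups. The labels do not say how the mutant and knockout alleles were made, whether libraries of a group came from separate mice, or which lung and spleen came from the same mouse.

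The tables give the authors' mean normalized count of each group and no values of single libraries, so no standard deviation can be printed. The p-values are the authors' own and measure the spread between these libraries, which may be technical. In whole tissue, fewer cells of a type and less RNA per cell cannot be told apart. Lung and spleen were normalized separately, so levels are compared within a tissue. The means of a group summed to between 7440000 and 10500000 over all lung entries and to between 3560000 and 5020000 over all spleen entries. IRF genes had means of at least 59.4 in every lung group and of at least 237 in every spleen group, far above the smallest means over 0, which were 0.215 and 0.199.

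LincRNA-Cox2 itself was listed at 0 in all 4 groups of knockout and mutant lung, against 30.2 with LPS and 34.8 with PBS in wild type lung. In spleen it was listed at 0.322 in knockout with LPS and at 0 in the other 3 knockout and mutant groups, against 3.53 with LPS and 2.13 with PBS in wild type. The 6 lung epithelium markers summed to 92520 to 131800 in the knockout and mutant lung groups and to 114970 to 132390 in wild type lung, and to at most 2415 in any spleen group. Sex-linked RNA differed between the groups. In lung, Xist had 23.2 in knockout, 4510 in mutant and 14.5 in wild type with LPS, against 1910, 3300 and 3660 with PBS. In lung, Ddx3y had 1130 in knockout, 4.73 in mutant and 1150 in wild type with LPS, against 447, 317 and 294 with PBS, and Ddx3y in spleen gave the same order. In spleen Xist had 33.7 in knockout, 4670 in mutant and 31.3 in wild type with LPS, against 3510, 4040 and 2470 with PBS. Sex therefore cannot be told apart from LPS treatment in any genotype, nor from genotype where mutant is compared with wild type or knockout under LPS.

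Stretches before the gene start are printed for Irf7, the member with the largest LPS ratio in every genotype and tissue, and for Irf1 and Irf8, which were at least 2-fold higher with LPS in all 6 pairs of groups. Sequences are from RefSeq, build GRCm38.p6 (mm10), and lie at chr11:53769764-53770013 on the plus strand for Irf1, at chr8:120736108-120736357 on the plus strand for Irf8 and at chr7:141266500-141266674 on the minus strand for Irf7. Each is 250 bases long except that of Irf7, which has 175 bases because it ends where the most upstream RefSeq transcript starts. Capitals mark matches of 3 motifs on either strand.
Irf1: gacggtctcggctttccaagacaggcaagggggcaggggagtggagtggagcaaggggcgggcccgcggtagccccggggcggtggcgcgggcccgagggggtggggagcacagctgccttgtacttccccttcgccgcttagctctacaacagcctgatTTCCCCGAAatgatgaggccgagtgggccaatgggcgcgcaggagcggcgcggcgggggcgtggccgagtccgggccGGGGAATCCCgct
Irf8: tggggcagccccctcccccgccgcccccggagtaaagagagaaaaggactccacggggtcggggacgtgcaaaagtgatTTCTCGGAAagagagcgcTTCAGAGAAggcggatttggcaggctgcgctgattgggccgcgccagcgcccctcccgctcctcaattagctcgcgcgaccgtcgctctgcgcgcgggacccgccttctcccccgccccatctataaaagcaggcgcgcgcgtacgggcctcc
Irf7: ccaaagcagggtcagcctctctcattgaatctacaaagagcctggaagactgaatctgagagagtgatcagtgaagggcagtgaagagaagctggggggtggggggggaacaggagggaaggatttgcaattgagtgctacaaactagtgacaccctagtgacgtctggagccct
The motifs were the IRF core (AANNGAAA), a STAT-binding GAS element (TTCNNNGAA) and the NF-kB consensus, found in 21.3%, 7.02% and 7.25% of 32851 promoter windows of 250 bases. Irf1 had a GAS match 90 bases and an NF-kB match 13 bases before its start. Irf8 had 2 GAS matches, the farther 171 bases before its start. The Irf7 window held none of the 3 motifs. Among the other members, the Irf2 window held a match of all 3, and the windows of Irf3, Irf4, Irf5 and Irf9 held none. A match is a description of the letters, not of binding, and an IRF core can overlap a GAS element by a few bases.

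With LPS, 7 of the 8 IRF genes had higher group means than with PBS in lung of all 3 genotypes, and Irf3 was lower. At least 2-fold higher means were seen for 6 of 8 members in knockout lung, against 16.9% of all entries with a mean of at least 10, for 7 of 8 in mutant lung, against 15.5%, and for 7 of 8 in wild type lung, against 13.9%. The response was smaller in spleen, with 4 of 8 in knockout (16.6% of entries), 3 of 8 in mutant (15.3%) and 4 of 8 in wild type (13.5%). No member was 2-fold lower in any pair, where 17.7%, 16% and 14.3% of entries in knockout, mutant and wild type lung and 18.7%, 16.7% and 14.8% in spleen were. The median log2 ratio of the members, with 1 added to each mean, was 1.96 in knockout, 1.98 in mutant and 1.61 in wild type lung, and 1.01, 0.92 and 0.88 in spleen, while the median of all entries lay between -0.03 and 0.02. Only group means were at hand for this contrast, and the ratios carry no p-value. Rescaling all groups to the same total shifted every log2 ratio by -0.36 to -0.50, and the counts then became 6, 6 and 5 in lung and 3, 2 and 3 in spleen, again in the order knockout, mutant, wild type.

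**Figure D1:**
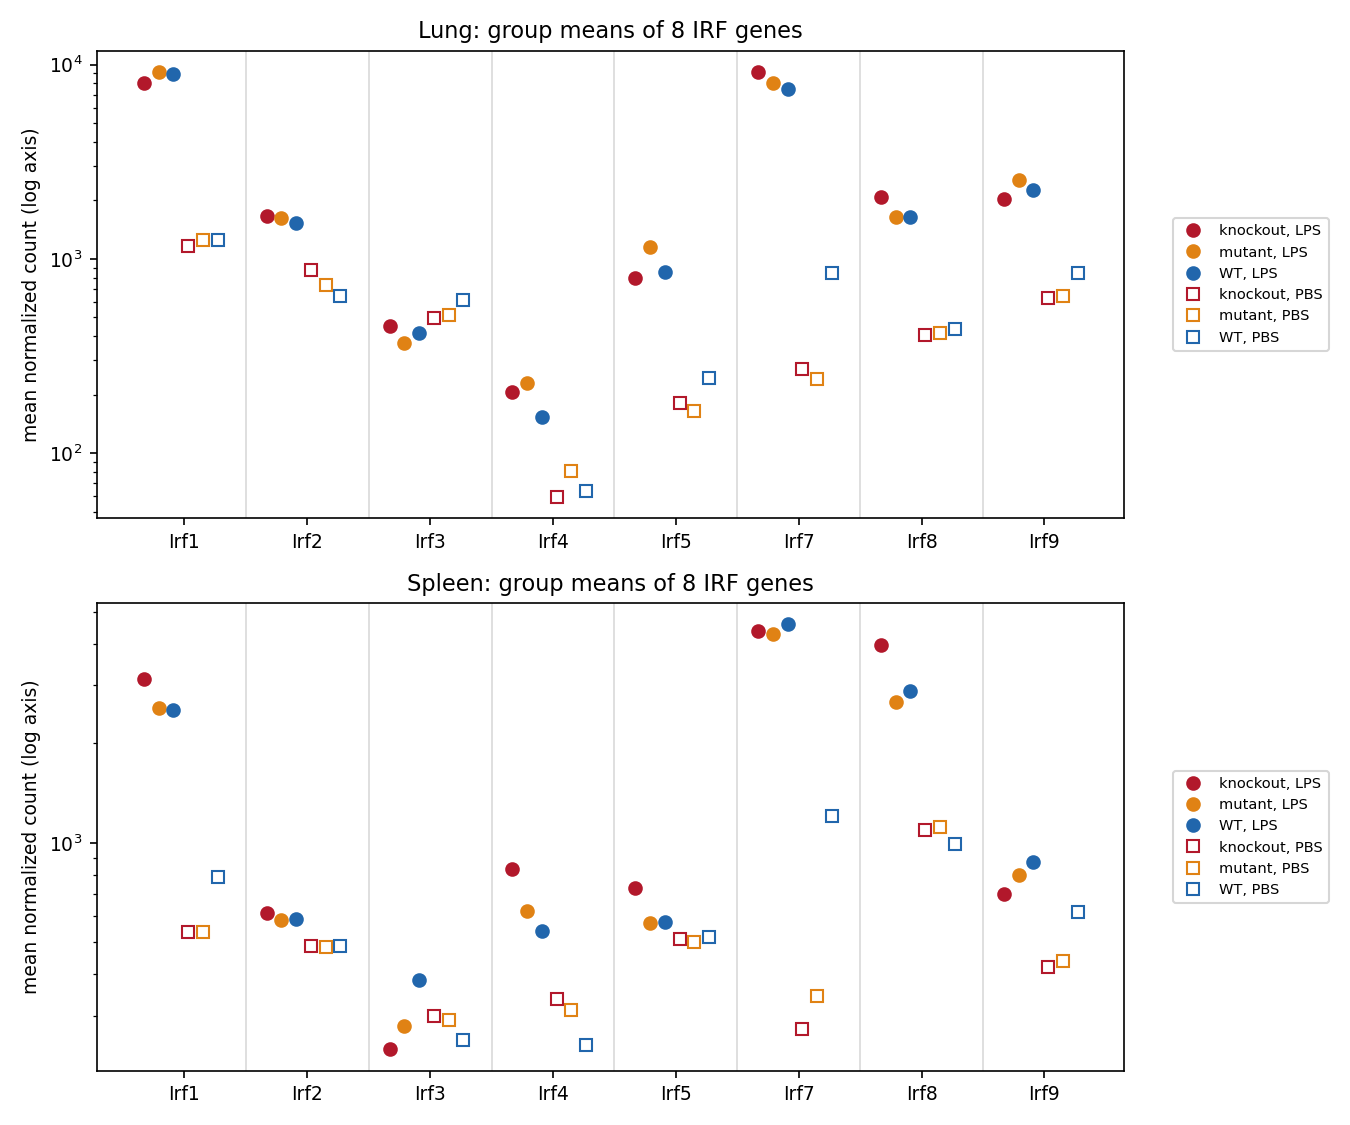
Mean normalized counts (log axis) of the 8 IRF genes in lung (top) and spleen (bottom), with 1 symbol per group: filled circles for LPS (3 libraries) and open squares for PBS (2 libraries), coloured by genotype. Irf7 has the widest gap between LPS and PBS, and its wild type PBS symbol lies above those of both other genotypes in each tissue. There are no error bars because the deposited tables give group means only.

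IRF3 and IRF7, which carry the signal from the LPS receptor to the interferon genes, behaved differently at the RNA level. Irf7 (chr7:141262706-141266481, minus strand), whose product amplifies the type I interferon response, had 9110 normalized counts in knockout, 8040 in mutant and 7480 in wild type lung with LPS, against 270, 242 and 842 with PBS. Its LPS level was 33.7-fold higher in knockout, 33.2-fold higher in mutant and 8.88-fold higher in wild type lung. In spleen Irf7 had 4376 in knockout, 4270 in mutant and 4580 in wild type with LPS, against 274, 343 and 1205 with PBS. The 3 LPS groups lay close together in each tissue, and the smaller wild type ratio went with a higher wild type PBS mean. The spleen ratios were 16.0-fold in knockout, 12.4-fold in mutant and 3.80-fold in wild type.

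Irf3 (chr7:44997648-45002848, plus strand) encodes the factor that is present before stimulation and is activated by phosphorylation. In lung it had 451 in knockout, 370 in mutant and 415 in wild type with LPS, against 497, 514 and 617 with PBS. It was the only member that was lower with LPS in lung in every genotype, at log2 ratios of -0.14 in knockout, -0.47 in mutant and -0.57 in wild type. In spleen it had 237 in knockout, 279 in mutant and 385 in wild type with LPS, against 299, 290 and 253 with PBS. The spleen log2 ratio was below 0 in knockout (-0.33) and mutant (-0.06) and above 0 in wild type (0.60). None of the 6 ratios reached 2-fold.

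Irf9 (chr14:55603571-55610030, plus strand) encodes the DNA-binding subunit of ISGF3. In lung it had 2030 in knockout, 2540 in mutant and 2270 in wild type with LPS, against 629, 643 and 850 with PBS, which is 3.23-fold, 3.95-fold and 2.67-fold higher with LPS. The spleen means of Irf9 were 699 in knockout, 797 in mutant and 872 in wild type with LPS, against 422, 440 and 619 with PBS. Its spleen ratios of 1.66-fold in knockout, 1.81-fold in mutant and 1.41-fold in wild type stayed under 2-fold. Irf9 overlaps Rnf31 on the same strand in the annotation, and the counting is not stated to separate them.

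Irf1 and Irf2, the activator and its antagonist, both stood higher with LPS in lung, Irf1 by far more. Irf1 (chr11:53770014-53778374, plus strand) had 8080 in knockout, 9160 in mutant and 8930 in wild type lung with LPS, against 1160, 1250 and 1250 with PBS. The lung ratios of 6.97-fold in knockout, 7.33-fold in mutant and 7.14-fold in wild type were the most alike of any member. Irf1 in spleen had 3120 in knockout, 2550 in mutant and 2530 in wild type with LPS, against 536, 537 and 790 with PBS. Both lines had a lower PBS mean than wild type there, and the ratios were 5.82-fold in knockout, 4.75-fold in mutant and 3.20-fold in wild type. Irf1 overlaps Gm17334 on the other strand, and use of strand in counting is not stated.

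Irf2 (chr8:46739732-46847458, plus strand) had 1660 in knockout, 1630 in mutant and 1530 in wild type lung with LPS, against 877, 731 and 645 with PBS. The ratio was 1.89-fold in knockout lung, just under the 2-fold limit, and 2.23-fold in mutant and 2.37-fold in wild type lung, just over it. On a common total no lung ratio of Irf2 reached 2-fold, at log2 ratios of 0.50 in knockout, 0.65 in mutant and 0.89 in wild type. The spleen means of Irf2 were 611 in knockout, 585 in mutant and 586 in wild type with LPS, against 486, 485 and 488 with PBS. All 6 spleen means lay within a narrow band. The log2 ratios of 0.33 in knockout, 0.27 in mutant and 0.26 in wild type were smaller in size than the constant of -0.46, -0.44 and -0.39 that a common total adds to every entry, so their sign depends on the scaling and no direction is given for Irf2 in spleen.

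Irf5 (chr6:29526625-29541871, plus strand), which drives cytokine genes downstream of Toll-like receptors, was higher with LPS in lung. It had 801 in knockout, 1150 in mutant and 855 in wild type lung with LPS, against 181, 164 and 245 with PBS. The ratios were 4.43-fold in knockout, 7.01-fold in mutant and 3.49-fold in wild type. In spleen Irf5 had 729 in knockout, 571 in mutant and 577 in wild type with LPS, against 510, 500 and 517 with PBS. Its spleen log2 ratios were 0.51 in knockout, 0.19 in mutant and 0.16 in wild type, and those of mutant and wild type were likewise smaller than that constant. Irf5 overlaps Tnpo3 on the other strand.

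Irf4 and Irf8, the members of lymphocytes, dendritic cells and myeloid cells, were higher with LPS in both tissues. Irf8 (chr8:120736358-120756694, plus strand), required for dendritic cell and monocyte development, had 2080 in knockout, 1640 in mutant and 1640 in wild type lung with LPS, against 404, 415 and 433 with PBS. The spleen means of Irf8 were 3980 in knockout, 2670 in mutant and 2870 in wild type with LPS, against 1090, 1120 and 993 with PBS. The ratios were 5.15-fold, 3.95-fold and 3.79-fold in knockout, mutant and wild type lung, and 3.65-fold, 2.38-fold and 2.89-fold in spleen. Irf8 in mutant spleen was under 2-fold on a common total, at a log2 ratio of 0.81.

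Irf4 (chr13:30749226-30766976, plus strand), needed for plasma cell formation and T cell responses, had the lowest counts of the members in lung. It had 206 in knockout, 230 in mutant and 153 in wild type lung with LPS, against 59.4, 80.7 and 63.9 with PBS. The spleen means of Irf4 were 833 in knockout, 621 in mutant and 542 in wild type with LPS, against 337, 312 and 244 with PBS. The LPS means exceeded all PBS means in each tissue. Lung ratios were 3.47-fold in knockout, 2.85-fold in mutant and 2.39-fold in wild type, and spleen ratios were 2.47-fold, 1.99-fold and 2.22-fold, so mutant spleen lay just under the 2-fold limit. On a common total no spleen ratio of Irf4 reached 2-fold, and the wild type lung ratio did not either.

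Markers of B cells and conventional dendritic cells, which use IRF4 and IRF8, were lower with LPS in spleen. The 9 B cell markers summed to 4675 in knockout, 4921 in mutant and 8202 in wild type spleen with LPS, against 14221, 13472 and 10804 with PBS, and 7, 6 and 3 of them were at least 2-fold lower. The 6 markers of conventional dendritic cells summed to 213, 212 and 249 with LPS, against 1051, 945 and 887 with PBS, and 5, 5 and 4 of them were at least 2-fold lower. Both sums were also lower with LPS in lung. There the B cell sums were 1465, 1037 and 672 with LPS, against 1551, 1655 and 1158 with PBS. Of these markers, 2, 2 and 3 were at least 2-fold lower. The conventional dendritic cell sums in lung were 531, 606 and 527 with LPS, against 622.5, 704 and 810.5 with PBS. Of these, 2, 3 and 3 were at least 2-fold lower. In lung, the 6 measured neutrophil markers were all at least 2-fold higher with LPS in each genotype, summing to 16367 in knockout, 13745 in mutant and 12270 in wild type with LPS, against 1398, 1750 and 1835 with PBS. In spleen the neutrophil sum was high in mutant with LPS only, at 12835, against 2197 in knockout and 3597 in wild type, and 2209, 2516 and 3531 with PBS. The 6 plasmacytoid dendritic cell markers summed to 3596 in knockout, 4623 in mutant and 4375 in wild type spleen with LPS. With PBS they summed to 1454, 2006 and 1658. Of the 5 with a sufficient mean, 2, 1 and 2 were at least 2-fold higher with LPS and 2, 1 and 0 at least 2-fold lower. These markers include Bst2, which is also among the listed targets of ISGF3, IRF3 and IRF7, so their sum is not specific to this cell type. The 5 measured plasma cell markers summed to 6331, 2746 and 2005 in spleen with LPS, against 4807, 3494 and 3999 with PBS. Their sum was higher with LPS in knockout and lower in mutant and wild type. No plasma cell marker with a sufficient mean was at least 2-fold higher in any genotype. At least 2-fold lower were 2 of 5 in knockout, 1 of 4 in mutant and 3 of 5 in wild type. None of the B cell, conventional dendritic cell or neutrophil markers was at 0 in any group. The 7 measured monocyte and macrophage markers summed to 7171, 6507 and 8491 in knockout, mutant and wild type lung with LPS. With PBS these lung sums were 3029, 3143 and 3641, and 2, 2 and 3 markers were at least 2-fold higher and 1, 1 and 0 lower. In spleen their sums were 2388, 2740 and 1941 with LPS, against 3131, 3175 and 3909 with PBS. There 0, 1 and 0 were at least 2-fold higher and 2, 2 and 3 lower. The part of any of these cell types in the levels of Irf4, Irf5 and Irf8 was not tested.

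**Figure D2:**
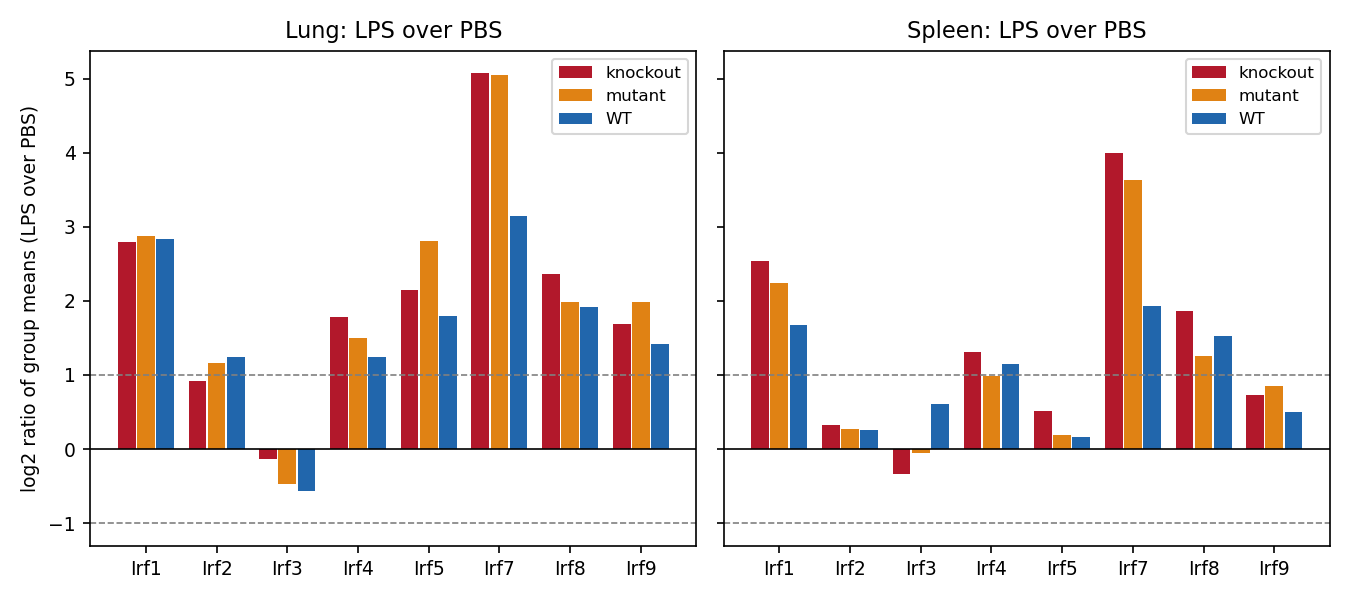
Log2 ratio of LPS over PBS means (1 added to each) for the 8 IRF genes in lung (left) and spleen (right), with bars for knockout, mutant and wild type and dashed lines at a 2-fold change in either direction. Irf7 has the tallest bars, at 5.07, 5.05 and 3.15 in knockout, mutant and wild type lung. In spleen the sign depends on the scaling for Irf2 in all genotypes and for Irf5 in mutant and wild type.

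Counts depend on transcript length, so levels of different members were compared per kb of annotated exon. With LPS, Irf7 ranked highest of the 8 in all 6 groups, with 3807 counts per kb in knockout, 3360 in mutant and 3126 in wild type lung, and 1829, 1785 and 1914 in spleen. With PBS, Irf7 ranked at place 6 in knockout and mutant lung, at 113 and 101 counts per kb, and at place 2 in wild type lung, at 352. In spleen with PBS it took place 7 in knockout, at 115, place 5 in mutant, at 143, and place 1 in wild type, at 503. Irf1 stood at rank 1 or 2 in every lung group, and Irf8 at rank 1 or 2 in every spleen group. Irf4 ranked last in every lung group, at 12.5 to 48.3 counts per kb, and at rank 7 or 8 in spleen. Without values of single libraries, whether neighbours in these orders differ beyond their spread could not be tested.

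The comparison of genotypes asks whether loss of lincRNA-Cox2 went with other IRF levels. Only Irf7 was called, and only in 1 of 12 comparisons. In the authors' deposited table, Irf7 was lower in knockout than in wild type spleen with PBS (274 against 1205), with a log2 fold of -1.86 and a DESeq2 adjusted p of 0.0295. This was 1 of 7 members with an adjusted p in that comparison, where 0.16% of 3124 entries were called, all lower. The other 4 called entries in the authors' deposited table, named after their values were seen, were Ifit1, Ifi44, Slfn4 and Mmp3, with log2 folds of -1.88, -2.01, -2.45 and -2.02 and the same adjusted p of 0.0295. No entry with an overall mean under 319 had an adjusted p there, which left out Irf3.

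The same direction held for Irf7 in the other PBS comparisons with wild type, without a call. In the authors' deposited table the log2 fold was -1.59 in mutant spleen (343 against 1205, adjusted p = 0.641), -1.47 in knockout lung (270 against 842, adjusted p = 0.900) and -1.61 in mutant lung (242 against 842, adjusted p = 0.924). These 3 comparisons had 18357, 18982 and 19083 entries with an adjusted p, against 3124 in the called one. The adjustment thus ran over unlike numbers of entries, and a call in 1 line only is no measure of a difference between the lines. The knockout and mutant folds of a tissue share the same wild type PBS group of 2 libraries, so they are not independent of each other. Lungs and spleens may also come from the same mice, so the folds of the tissues may not be independent either. Between knockout and mutant with PBS, the authors' deposited table gave Irf7 log2 folds of 0.14 in lung and -0.28 in spleen, both with an adjusted p of 1. With LPS, its folds in the authors' deposited table were 0.27 in knockout over wild type lung (adjusted p = 0.891), 0.10 in mutant over wild type lung (0.997), -0.06 in knockout over wild type spleen (0.977) and -0.09 in mutant over wild type spleen (1).

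With close LPS means and lower PBS means, the log2 LPS ratio of Irf7 was larger in each mutated line than in wild type. The difference of log2 ratios was 1.92 for knockout minus wild type and 1.90 for mutant minus wild type in lung, where 3.25% and 2.29% of entries had a difference of at least 1. In spleen it was 2.07 and 1.71, where 8.35% and 5.79% of entries did. Knockout minus mutant was 0.02 in lung and 0.36 in spleen, where 1.85% and 3.42% of entries reached 1. The only other member at 1 or above was Irf5 in mutant minus wild type lung, at 1.00. No interaction term is in the tables, so these differences of response were not tested.

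**Figure D3:**
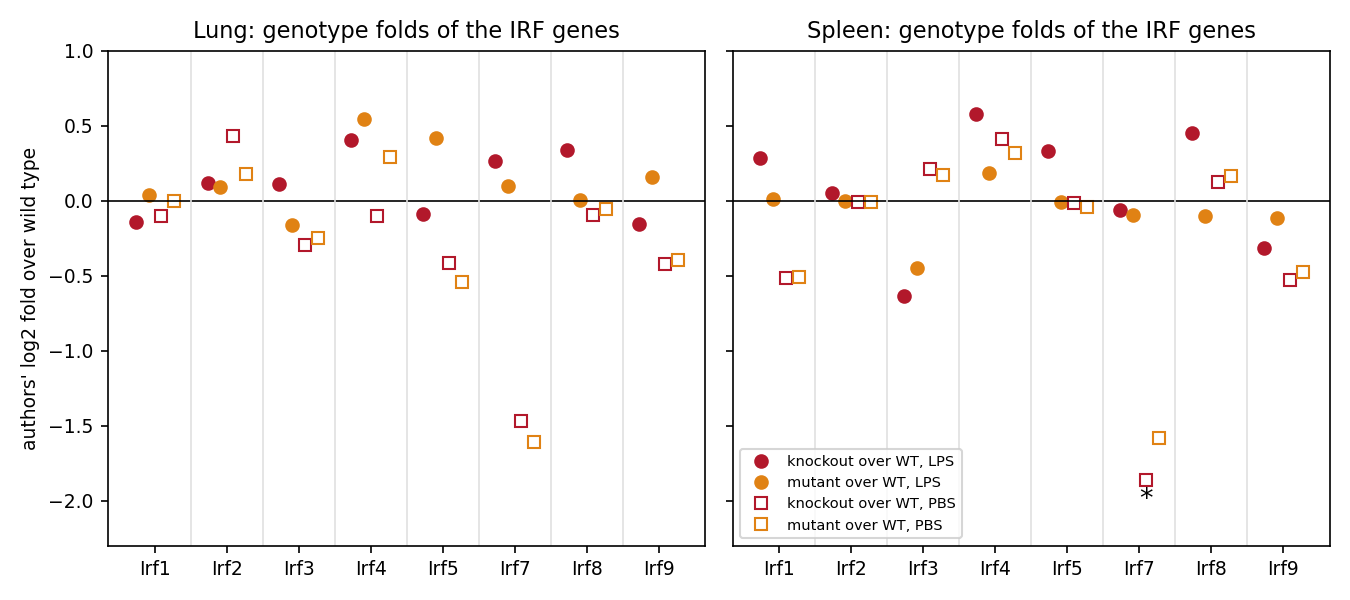
The authors' deposited log2 folds of the 8 IRF genes over wild type in lung (left) and spleen (right), for knockout and mutant with LPS (filled circles) and with PBS (open squares). Irf7 with PBS lies at -1.47 and -1.61 in knockout and mutant lung and at -1.86 and -1.59 in spleen, and the asterisk marks the call with an adjusted p under 0.05.

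The remaining members were not called in any comparison. By the authors' DESeq2 fits, as their deposited table gives them, 0 of 8 members passed an adjusted p of 0.05 in any of the 6 lung comparisons, where 0.441% of entries passed 0.05 for knockout over wild type with LPS, 0.0715% for mutant over wild type with LPS, 0.243% for knockout over mutant with LPS, 0.0421% and 0.00524% for knockout and mutant over wild type with PBS, and 0.0523% for knockout over mutant with PBS. In the 5 other spleen comparisons of the authors' deposited table, again 0 of 8 members passed, where 0.0241%, 0.00545% and 0.177% of entries passed 0.05 for knockout over wild type, mutant over wild type and knockout over mutant with LPS, and 0% for mutant over wild type and knockout over mutant with PBS. Unadjusted p-values were not used here, and no other tool could be run on group means. With so few entries called, a count of 0 among 8 genes is near the background.

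Some folds without a call were moderate in size. Irf8 in the authors' deposited table was at a log2 fold of 0.55 in knockout over mutant spleen with LPS (3980 against 2670, adjusted p = 0.507) and 0.45 in knockout over wild type (3980 against 2870, adjusted p = 0.677). Irf3 was at -0.63 in knockout over wild type spleen with LPS (237 against 385, adjusted p = 0.679) and -0.45 in mutant over wild type (279 against 385, adjusted p = 1) in the authors' deposited table. For Irf4 the authors' deposited table gave 0.58 in knockout over wild type spleen with LPS (833 against 542, adjusted p = 0.690). In lung with LPS, Irf5 was at -0.51 in knockout over mutant (801 against 1150, adjusted p = 0.624) in the authors' deposited table. With PBS in spleen, Irf1 was at -0.51 in both lines over wild type (536 in knockout and 537 in mutant against 790) and Irf9 at -0.53 in knockout and -0.48 in mutant (422 and 440 against 619), where the authors' deposited table has adjusted p of 0.999 or 1.

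Listed target genes of ISGF3, IRF3 and IRF7 had higher means with LPS, and nearly all had lower PBS means in both lines than in wild type. For these and the following lists, the share of all entries at least 2-fold higher is the one given with the members, 13.5% to 16.9%. All 16 were at least 2-fold higher with LPS in knockout and mutant lung and 15 of 16 in wild type lung, with median log2 ratios of 4.87, 5.23 and 3.81. In spleen all 16 were in each genotype, with medians of 4.05, 4.07 and 2.32. Cxcl10, a chemokine that attracts T cells, had log2 ratios of 8.20, 8.28 and 7.30 in knockout, mutant and wild type lung, and Rsad2, an antiviral enzyme, had 6.31, 7.14 and 5.39. Mx1, an antiviral GTPase, had 6.36, 6.97 and 4.98. The lowest in wild type lung were Oas2, which senses double-stranded RNA, at 3.04, 3.51 and 2.26, and Bst2, which tethers virions, at 2.52, 1.97 and 0.99. In spleen Cxcl10 was at 6.16 in knockout, 5.53 in mutant and 3.69 in wild type, and the ubiquitin-like Isg15 at 4.39, 4.31 and 2.88.

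With PBS, 15 of the 16 targets were below wild type in knockout lung and 15 in mutant lung, with median log2 folds of -0.97 and -0.96 in the authors' deposited table, where the medians of all tested entries were 0.0058 and -0.0047. In spleen all 16 were below wild type in both lines, with medians of -1.22 in knockout and -0.99 in mutant. In the authors' deposited table, Ifit1 and Ifi44 were called lower in knockout spleen, 2 of the 16, and none in mutant spleen or in either line in lung. Both are induced by interferon. Ifit1 had 213 in knockout, 259 in mutant and 940 in wild type spleen with PBS, and Ifi44 had 53.2, 52.8 and 275. With LPS, 12 of the 16 were above wild type in knockout lung and 14 in mutant lung, with medians of 0.16 and 0.41 in the authors' deposited table, and 6 and 13 in spleen, with medians of -0.12 and 0.33. None of the targets was called in those LPS comparisons of the authors' deposited table.

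Markers of other cells also differed between the PBS groups of the genotypes. In lung with PBS, the 5 pancreatic acinar markers summed to 42.0 in knockout, 30.4 in mutant and 543.8 in wild type, and in the same order the 5 hepatocyte markers to 2989, 3114 and 4237, and the 6 lung epithelium markers to 94150, 92520 and 132390. Every marker of these 3 lists was below wild type in both lines in lung, and the hepatocyte markers also in spleen, where the acinar markers were above it. Immune cell markers differed with PBS as well. Of 6 neutrophil markers, 5 were below wild type in each line in lung and 6 in spleen. Of 7 monocyte and macrophage markers, 6 in knockout lung, 5 in mutant lung and 5 in each line in spleen were below. Of 9 B cell markers, 9 in knockout lung, 8 in mutant lung and 8 in each line in spleen were above. The part of any of these cells in the PBS levels of Irf7 and the targets was not tested. The target list was written with earlier results of these data known, and it shares the wild type PBS groups with the Irf7 folds, so it is no independent evidence.

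**Figure D4:**
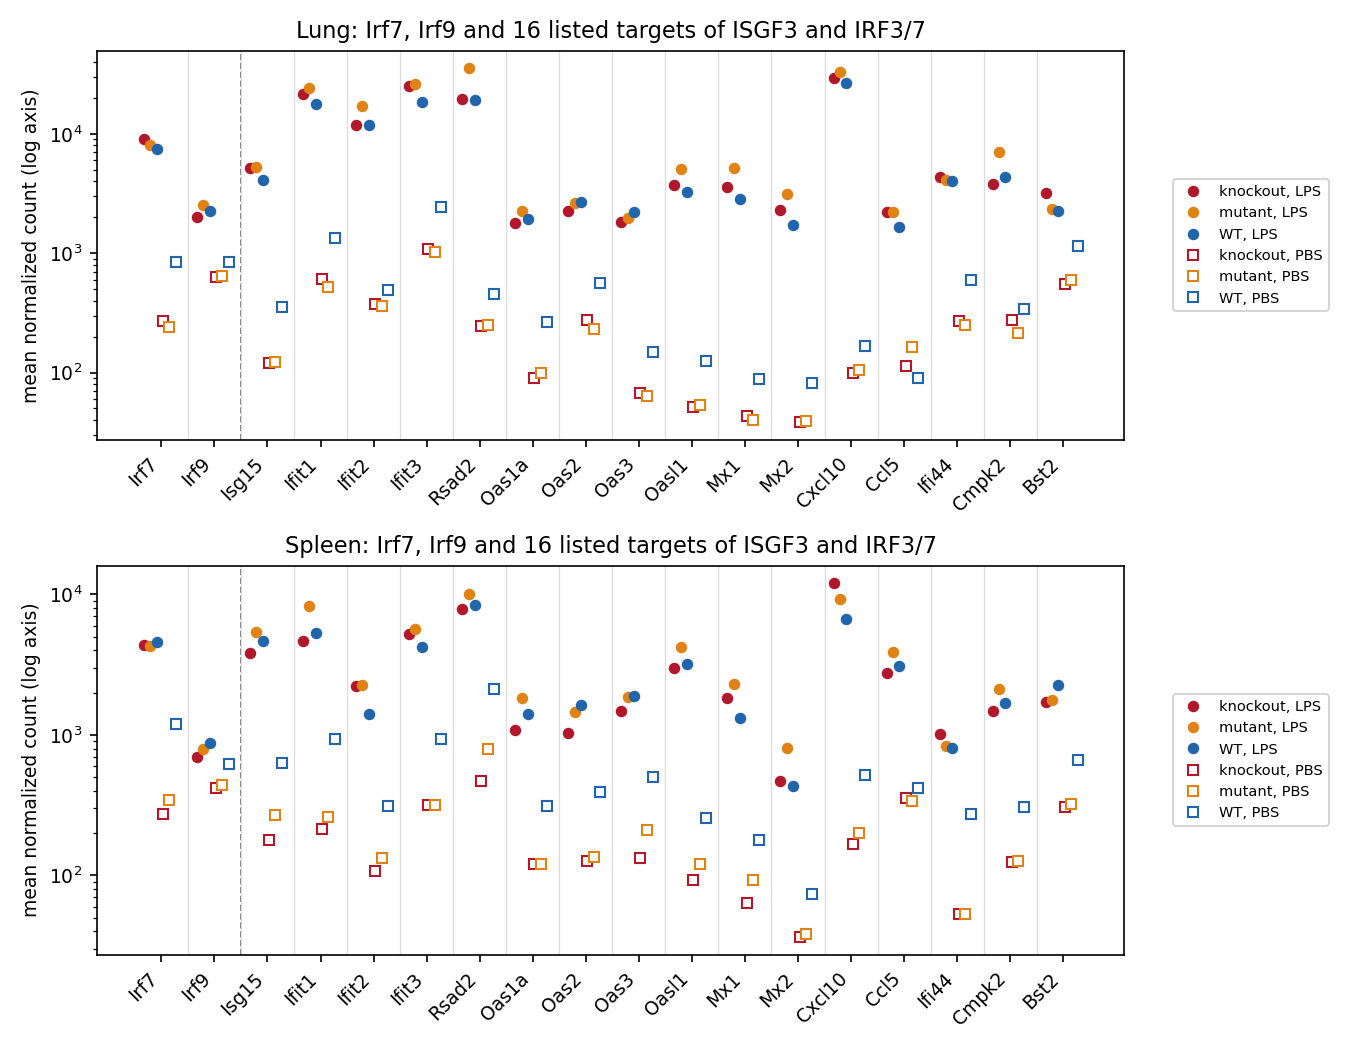
Mean normalized counts (log axis) of Irf7, Irf9 and 16 listed targets of ISGF3, IRF3 and IRF7 in lung (top) and spleen (bottom), with filled circles for LPS and open squares for PBS, coloured by genotype. The wild type PBS square lies above both others for Irf7, Irf9 and all 16 targets in spleen, and for Irf7, Irf9 and 15 of the 16 in lung, with Ccl5 as the exception.

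The 17 listed target genes of IRF1, which encode guanylate-binding proteins and parts of antigen processing among others, were also mostly higher with LPS. At least 2-fold higher were 15 of 16 with a sufficient mean in knockout lung, 15 of 16 in mutant lung and 16 of 17 in wild type lung, with medians of 2.78, 2.96 and 2.38. In spleen 14, 13 and 13 of 17 were, with medians of 1.96, 2.18 and 1.84. Cxcl9, a chemokine induced by interferon gamma, had log2 ratios of 8.80, 8.25 and 7.39 in knockout, mutant and wild type lung, and Gbp5, a guanylate-binding protein, had 5.57, 5.75 and 5.46. Nos2, the inducible nitric oxide synthase, had 4.52, 4.92 and 5.32. With PBS, 14 of these 17 were below wild type in knockout lung and 14 in mutant lung, with medians of -0.19 and -0.42 in the authors' deposited table, and 16 in each line in spleen, with medians of -0.35 and -0.23. Ciita, the master regulator of MHC class II genes, went against its list in spleen, at -2.05 in knockout, -2.19 in mutant and -0.80 in wild type. Ciita had 115, 128 and 212 with LPS, against 481, 588 and 370 with PBS, and its spleen values ran in the same direction as the B cell marker sums, whose part was not tested.

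Of the ligands that drive these factors, Ifng RNA, encoding interferon gamma, was abundant 6 h after LPS while Ifnb1, encoding interferon beta, was close to 0. Ifng had 1320 in knockout, 744 in mutant and 973 in wild type lung with LPS, against 12.7, 8.03 and 8.62 with PBS. In spleen it had 4690, 1380 and 1700 with LPS, against 13.0, 21.1 and 11.8 with PBS. In the authors' deposited table the higher spleen mean in knockout over wild type with LPS (log2 fold 1.27) had an adjusted p of 0.588. Ifnb1 was listed at 2.19 in knockout, 0 in mutant and 0.664 in wild type lung with LPS and at 0.46 to 1.27 in spleen with LPS, and at 0 in all 6 PBS groups. Of the other listed interferon genes, Ifna2, Ifnl2 and Ifnl3 had no entry in either tissue, and Ifna4 had none in lung. The low Ifnb1 values therefore do not speak for all interferons, and they cover the 6 h time only. Of the receptor genes, Ifnar2 was the highest in ratio, at log2 values of 0.88, 1.09 and 1.03 in knockout, mutant and wild type lung.

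Upstream of the IRFs, 12, 13 and 14 of 21 kinases, sensors and adaptors were higher with LPS by 2-fold or more in knockout, mutant and wild type lung, and 10, 10 and 8 in spleen. Cd14, the LPS co-receptor, had log2 ratios of 5.15, 5.22 and 4.37 in lung and 4.41, 4.18 and 2.53 in spleen, and Ikbke, a kinase that phosphorylates IRF3 and IRF7, had 4.30, 4.22 and 3.78 in lung. Mavs, the mitochondrial adaptor of RNA sensing, was lower with LPS in lung, at -1.48, -1.42 and -0.85, and Ticam2, an adaptor of Toll-like receptor 4, was lower in spleen, at -1.65, -1.37 and -1.63. Tlr4 was higher in lung, at 1.08, 1.02 and 1.28, and lower in spleen, at -0.61, -1.09 and -1.31. No gene of this list was called in a genotype comparison of the authors' deposited table.

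Of 8 JAK and STAT genes, 4, 6 and 6 were at least 2-fold higher in knockout, mutant and wild type lung and 4, 3 and 2 in spleen, and none was 2-fold lower. The share of all entries was 16.9%, 15.5% and 13.9% in lung and 16.6%, 15.3% and 13.5% in spleen, and 2 of 8 in wild type spleen is near it. Stat2, the partner of IRF9 in ISGF3, had log2 ratios of 2.20, 2.69 and 1.79 in lung and 1.77, 2.39 and 1.70 in spleen. The 3 spleen ratios of Stat2 exceeded those of Irf9 in the same genotypes, which were 0.73, 0.86 and 0.49. Tyk2, a kinase of the type I interferon receptor, was below 0 in all 6 pairs, between -0.98 and -0.27.

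Among 15 partners and cofactors of IRF proteins, 6, 6 and 7 were at least 2-fold higher in knockout, mutant and wild type lung. In spleen 4 were higher in each genotype, against 16.6%, 15.3% and 13.5% of all entries, and 3, 4 and 0 were at least 2-fold lower, against 18.7%, 16.7% and 14.8%, so the spleen counts lie near those of all entries. Batf, which pairs with IRF4 and IRF8 on DNA, had log2 ratios of 4.05, 4.38 and 3.49 in lung and 3.26, 3.32 and 3.14 in spleen, and its relative Batf2 had 4.89, 4.94 and 4.36 in lung and 4.52, 4.97 and 3.19 in spleen. Spi1, encoding PU.1, was at 3.05, 2.35 and 2.15 in lung. Ikzf3, a lymphocyte factor, was lower in spleen, at -1.35, -1.47 and -0.66. Of 10 inhibitors, 7 were at least 2-fold higher in each lung genotype and 6 in each spleen genotype, with Socs1, which blocks JAK kinases, at 4.98, 5.01 and 4.53 in lung and 3.60, 3.96 and 3.24 in spleen. No gene of these lists was called in a genotype comparison of the authors' deposited table either.

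Across the 12 group means, centred within each tissue, Irf3 ran against every other member, with Pearson r of -0.62 to -0.40, while the other 7 correlated with each other at 0.82 to 0.98. The highest was between Irf1 and Irf8. These correlations describe 12 means that share the LPS contrast and the libraries, and no p is given. By the same measure over 9028 entries with a mean of at least 50 in both tissues, the entries most like Irf7 were mKIAA1554, Zbp1 and Isg15 (r = 0.995, 0.994 and 0.993) and those most like Irf9 were Rsad2, Gca and F10 (0.988, 0.986 and 0.983). Most like Irf1 were Gbp5, Adamts4 and Car13, all at 0.998, and most like Irf8 were Rabgef1, Il17f and AI506816 (0.996, 0.996 and 0.995). For Irf3 the 3 were Cpsf3l, Pcyt2 and Zfp444, at lower values of 0.955, 0.933 and 0.931. For Irf2 they were Ank2, Pnrc1 and Smad1 (0.989, 0.984 and 0.977), for Irf4 Rbm34, Tti2 and Snrnp40 (0.985, 0.978 and 0.978) and for Irf5 Arrdc4, Gpr35 and Tra2a (0.989, 0.987 and 0.985).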

How the data were processed

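Messenger RNA libraries of 30 samples were made with Illumina kits, per the labels' protocols. The submitters' processing notes list Bowtie2, STAR 2.5.3a, SAMtools, bedtools, DESeq2 and the build mm10, and say nothing of order, settings or strand. The deposited group means are a signal, counts divided by size factors if the authors used the baseMean of DESeq2, as the file headers name it. The authors' deposited log2 folds cover 6 genotype comparisons per tissue, and their adjusted p-values are handled as a score because 6 lung and 5 spleen lines were broken. Those lines were left out, 1026 split symbols in spleen were rejoined, and many cells carry only 3 significant digits.

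With means only, no fit on libraries was possible. A call is an adjusted p under 0.05 of the authors. For LPS over PBS the log2 ratio was taken after adding 1 to both means, for entries whose higher mean reached 10, and 2-fold was the limit. Scripts used Python 3.11.15, pandas 2.3.3 and numpy 2.4.6 and were tested on simulated data. Exon lengths and positions are from GENCODE, promoters from RefSeq, where all 8 genes matched.

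The members and lists were chosen with earlier results of these data known. All members are named, and of each pathway list the 3 genes highest and the 2 lowest in LPS ratio in wild type of each tissue, of which a part is printed, with any called gene, and the 3 entries most correlated with each member. Alternatives were other pseudocounts, scalings, filters and limits.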

Additional observations from a re-analysis of the deposited data

How the results depend on the processing

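The LPS counts kept to within 1.5 times under pseudocounts of 0.1 and 10, median centring, a common total and no filter on the mean. Under a limit of 1.5-fold the count in mutant spleen was 5. Under a limit of 4-fold the counts were 3 in mutant lung, 2 in wild type lung, 2 in knockout spleen and 0 in wild type spleen. No genotype count moved at the authors' own limit of 0.1. On a common total 12 of 48 member log2 ratios shifted by at least 0.5 or crossed the 2-fold limit. Outside these 12, 5 ratios changed sign, all in spleen and all smaller in size than the constant that a common total adds. The 3 entries most like each member depended on the samples: with lung alone, none of the 3 was shared for any of the 8 members. Leaving out a library was not possible, because the tables hold group means. No paired analysis was possible because the columns carry no replicate numbers. Depth did not limit the members, whose lowest means were at least 145 times the smallest mean above 0 in the same group. The 2 libraries in each PBS group do limit the Irf7 comparison, since the spread behind the wild type PBS mean cannot be seen.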

Other observations

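Markers of organs other than those sampled varied between groups. The 5 hepatocyte markers summed to 4310 in knockout, 3390 in mutant and 949 in wild type spleen with LPS, against 1601, 1207 and 2871 with PBS. The 5 pancreatic acinar markers summed to 8538, 19360 and 12650 in spleen with LPS, against 2506, 15820 and 945 with PBS. Skeletal muscle markers summed to 610 in knockout lung with LPS and 2598 with PBS, against at most 71.3 in the mutant and wild type lung groups. The T cell markers summed to 794, 952 and 1535 in knockout, mutant and wild type spleen with LPS, against 2841, 2714 and 2215 with PBS.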
